A study of Rattus norvegicus with 9 samples.

Results

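The 10 genes Ppp1r1b, Gnal, Adcy5, Pde10a, Pde1b, Rgs9, Rasd2, Rasgrp2, Ptpn5 and Arpp21, which serve or modulate cyclic AMP (cAMP) signalling in the projection neurons of the striatum, were followed across 9 RNA-seq libraries of rat striatal tissue. They were chosen by gene symbol from the 22890 gene IDs of the deposited tables, all 10 were present, and all 10 were among the 14274 genes with enough counts to be tested. The libraries form 3 groups of 3. Sham is the control group, ICH the group with intracerebral hemorrhage, in which blood enters brain tissue, and EDB the group named for the drug edaravone dexborneol, which combines dexborneol and edaravone, a scavenger of free radicals. The labels give no strain, age, sex, dose, time point or method of hemorrhage, and they do not say whether EDB rats had a hemorrhage, so EDB was set against both other groups. Whether the 3 libraries of each group are from different animals is not stated, so p-values measure only the spread between these samples, part of which may be technical.

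In the striatum, most neurons are GABA-releasing projection neurons that receive dopamine. Dopamine D1 receptors raise cAMP through the G protein Golf and adenylyl cyclase 5, adenosine receptors encoded by Adora2a do so in the neurons that carry D2 receptors, and D2 receptors lower it. cAMP activates protein kinase A, which phosphorylates DARPP-32 and thereby turns it into an inhibitor of protein phosphatase 1, and phosphodiesterases end the signal by breaking cAMP down. The transcripts of some of these proteins, such as DARPP-32 and adenylyl cyclase 5, are much more abundant in striatum than in most other brain regions. They are used as markers of its projection neurons.

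All 14 identity genes of striatal projection neurons found in the files were detected, with sums of 3622 to 6992 CPM (counts scaled by library size). The 8 markers of cortical excitatory neurons summed to 41.1 to 103 CPM. Sums over different genes were not corrected for gene length and are not compared with each other. Libraries held 14658110 to 17659936 counts, and the lowest count of any of the 10 genes in any library was 1673, so counting error was small beside the spread between libraries. Of the libraries 3 stood apart, and the tests of the 10 genes and of other genes of the pathway were repeated without each of them. Marker tests, sums, ratios, profiles, levels relative to other genes and counts of genes without overlap used all 9 libraries only. Sham 2 had the highest level of 9 of the 10 genes, ICH 1 had the lowest level of 8, and in EDB 3 the summed level of 6 choroid plexus markers was 7220 CPM against 27.6 to 73.3 CPM in the other 8 libraries. ICH 1 was also the library without a count of the Y-linked genes Kdm5d and Eif2s3y. These had 49 to 313 counts in each of the other 8 libraries, so ICH 1 is not from the same animal as ICH 2 or ICH 3. It may also differ in sex from the other 8 libraries, which the labels do not settle. Whether sex had a part in the changes seen when ICH 1 was left out was not tested. Changes are given below as log2 fold changes ± SE from edgeR's quasi-likelihood test with Benjamini-Hochberg adjustment over all genes tested (n = 3 against 3), levels as CPM or as mean ± SD (n = 3), and the words rose and fell are kept for an adjusted p under 0.05. Levels are listed in the order of library number.

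RefSeq promoter windows (build GRCr8, the 250 bases before a transcript start) were given for 8 of the 10 genes, 2 of them for Pde10a. Those of Rasd2 and Rasgrp2 are shown because these genes fell most in ICH, and that of Gnal because it differed least from Sham in both other groups. A window of Pde10a is shown because it held the core of the cAMP response element. Capitals mark the GC box GGGCGG and the core TGACG, each on either strand. The sequences run 5′ to 3′ on the gene's strand.
Rasd2, chr19:13599778-13600027, plus strand: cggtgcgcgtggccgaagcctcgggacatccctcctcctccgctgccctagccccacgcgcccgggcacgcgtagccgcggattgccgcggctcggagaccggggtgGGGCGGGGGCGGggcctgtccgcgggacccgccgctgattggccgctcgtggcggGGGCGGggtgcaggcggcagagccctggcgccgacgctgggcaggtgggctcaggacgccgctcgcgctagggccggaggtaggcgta
Rasgrp2, chr1:213136484-213136733, plus strand: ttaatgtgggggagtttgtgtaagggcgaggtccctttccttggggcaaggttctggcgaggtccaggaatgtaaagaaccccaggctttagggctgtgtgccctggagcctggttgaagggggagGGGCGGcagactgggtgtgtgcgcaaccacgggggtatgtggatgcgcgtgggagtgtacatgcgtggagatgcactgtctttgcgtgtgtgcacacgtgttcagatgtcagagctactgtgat
Gnal, chr18:62892007-62892256, plus strand: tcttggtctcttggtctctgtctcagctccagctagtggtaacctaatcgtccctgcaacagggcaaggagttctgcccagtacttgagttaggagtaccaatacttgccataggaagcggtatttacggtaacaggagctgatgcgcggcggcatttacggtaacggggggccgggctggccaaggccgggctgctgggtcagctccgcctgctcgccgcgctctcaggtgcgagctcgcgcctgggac
Pde10a, chr1:54765669-54765918, minus strand: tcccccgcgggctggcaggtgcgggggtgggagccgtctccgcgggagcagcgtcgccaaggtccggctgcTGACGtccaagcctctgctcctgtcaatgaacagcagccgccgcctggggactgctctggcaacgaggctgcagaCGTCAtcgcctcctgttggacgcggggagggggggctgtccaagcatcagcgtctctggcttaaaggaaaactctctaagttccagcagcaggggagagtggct

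The full cAMP response element, TGACGTCA, was in 0 of the 9 windows and in 1.59% of the 33469 RefSeq promoter windows. Its core, which is part of the full element, was in 1 of the 9, the Pde10a window shown (beginning 179 and 104 bases before the start), and in 18.2% of all windows. The GC box was in 6 of the 9 and in 30.5% of all windows. Rasd2 held 3 copies, 143, 137 and 88 bases before the start, and Rasgrp2 held 1, at 124 bases. The other windows with a GC box were those of Adcy5, Rgs9 and Ptpn5, which fell in ICH, and the second of Pde10a, which was not called. The windows of Gnal and Arpp21 held neither motif, although Arpp21 fell in ICH and Gnal was not called. A link between these motifs and the changes was not tested. GC content of the 9 windows ran from 46.4% (Arpp21) to 78.4% (Rasd2), with a median of 51.2% over all windows. These matches describe letters in a short window and say nothing of binding.

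**Figure D1:**
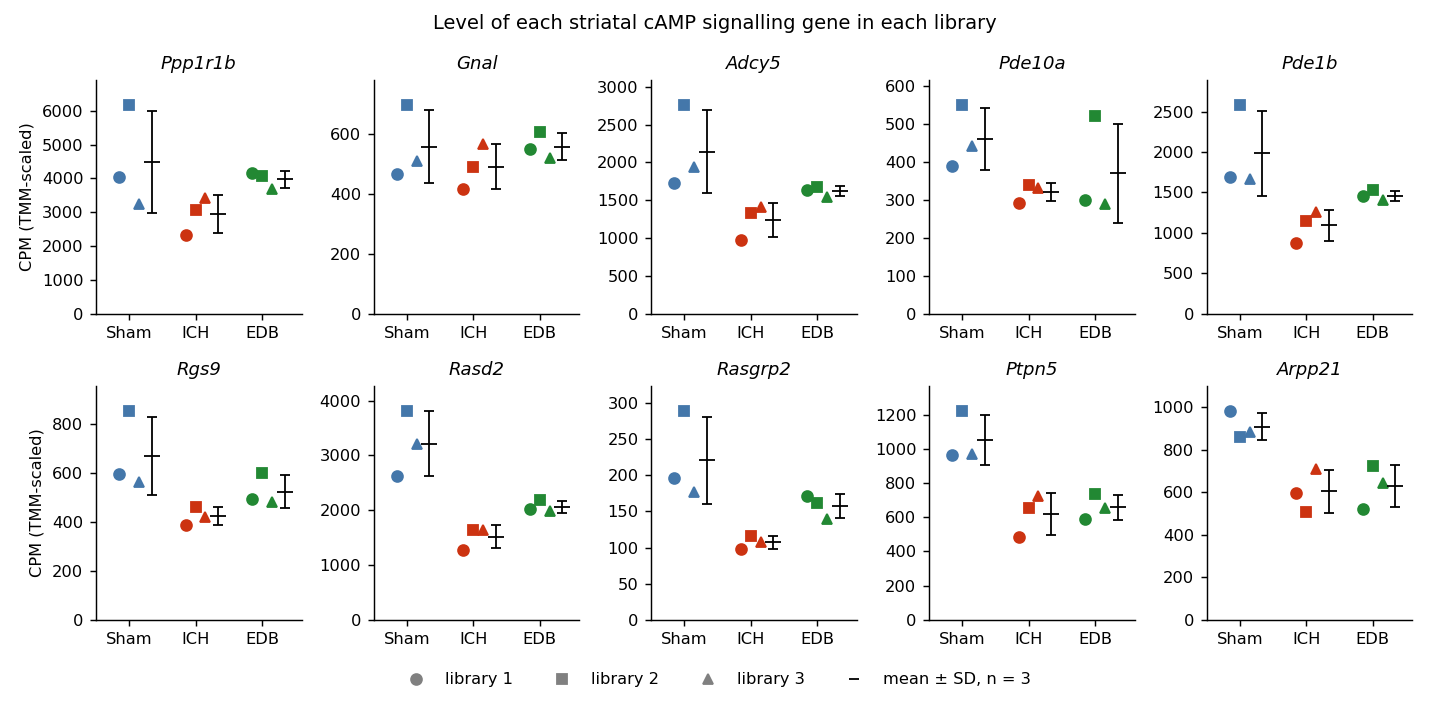
Level of each of the 10 genes in each library (vertical axis, CPM, starting at 0), by group, with library number shown by symbol and the mean ± SD of 3 libraries beside the points. Rasd2 ran from 2632 to 3810.5 CPM in Sham and from 1271 to 1646 CPM in ICH, whereas the Gnal levels of the 3 groups overlapped.

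The first step of the pathway was represented by Gnal and Adcy5. Gnal encodes the alpha subunit of Golf, which couples dopamine D1 and adenosine receptors to the cyclase. It stood at 467, 699 and 512 CPM in Sham, at 416, 492 and 568 CPM in ICH, and at 549.9, 607 and 522 CPM in EDB. The groups overlapped in all 3 comparisons, and the difference of ICH from Sham was small against its error (-0.18 ± 0.17, adjusted p = 0.519, and 0.0095 without Sham 2). Adcy5, the main adenylyl cyclase of the striatum, stood at 1722, 2762 and 1939.8 CPM in Sham, at 980.3, 1329 and 1409 CPM in ICH, and at 1638, 1676 and 1542 CPM in EDB. Every ICH library lay below every Sham and EDB library, and every EDB library below every Sham library. Adcy5 fell in ICH (-0.79 ± 0.20, adjusted p = 0.0166), a call that was lost without ICH 1 (-0.64, adjusted p = 0.0662). Because the samples are bulk tissue, fewer cells of a type and less RNA per cell cannot be told apart here or in any result below.

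The phosphodiesterases that limit the signal were Pde10a and Pde1b. Pde10a, which breaks down both cAMP and cyclic GMP, stood at 389, 549.5 and 441 CPM in Sham, at 292, 338 and 329.8 CPM in ICH, and at 299.9, 519 and 288 CPM in EDB. Within EDB the second library stood far above the other 2, of which EDB 1 lay within the ICH range and EDB 3 just below it. All ICH libraries lay below all Sham libraries, but the difference did not pass the test (-0.52 ± 0.22, adjusted p = 0.127). It passed in a fit without EDB 2 (adjusted p = 0.0325). Pde1b, the calmodulin-dependent phosphodiesterase, stood at 1696, 2583 and 1667 CPM in Sham, at 879, 1152 and 1252 CPM in ICH, and at 1451, 1527 and 1403 CPM in EDB. None of the 3 groups overlapped with another, and EDB lay between the others. Pde1b fell in ICH (-0.86 ± 0.19, adjusted p = 0.0106).

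Ppp1r1b encodes DARPP-32, the protein kinase A target that inhibits protein phosphatase 1. Its level was 4029, 6174 and 3246 CPM in Sham, 2330, 3069 and 3433 CPM in ICH, and 4145, 4075 and 3688 CPM in EDB. Sham 3 lay below ICH 3, so Sham and ICH overlapped, while all EDB libraries lay above all ICH libraries. The SD within Sham was 1516 CPM against 246 CPM within EDB. The difference of ICH from Sham did not pass the test (-0.61 ± 0.23, adjusted p = 0.0949), and it depended on which Sham library was kept. It was -0.79 without Sham 3 (adjusted p = 0.0416) and -0.30 without Sham 2 (adjusted p = 0.277). DESeq2 called it lower (-0.64, adjusted p = 0.0301).

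Rgs9 encodes a GTPase-activating protein that shortens the signal of inhibitory G proteins, such as those coupled to D2 receptors, in striatal neurons. It stood at 594, 853 and 564 CPM in Sham, at 388, 459.9 and 422 CPM in ICH, and at 491, 599 and 480.5 CPM in EDB. ICH lay below both other groups, and EDB overlapped with Sham. Rgs9 fell in ICH (-0.66 ± 0.17, adjusted p = 0.0202), a call lost without ICH 1 (adjusted p = 0.0783) or ICH 3 (adjusted p = 0.0576).

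The largest falls in ICH among the 10 genes were those of 2 genes for small GTPase signalling. Rasd2 encodes Rhes, a Ras-like GTPase enriched in striatum that dampens G protein and cAMP signalling. It stood at 2632, 3810.5 and 3203 CPM in Sham, at 1271, 1636 and 1646 CPM in ICH, and at 2014, 2177 and 1977 CPM in EDB, so that no group overlapped with another. It fell in ICH (-1.08 ± 0.17, adjusted p = 0.00119), a change of -52.8%. Rasgrp2 encodes CalDAG-GEFI, a calcium- and diacylglycerol-regulated activator of Rap1. It stood at 196, 289 and 177 CPM in Sham, at 97.5, 115 and 108 CPM in ICH, and at 171, 162 and 139 CPM in EDB. Again no group overlapped with another, and the fall in ICH was -1.04 ± 0.18 (adjusted p = 0.00218), a change of -51.5%.

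Ptpn5 and Arpp21 differed from the others in where EDB lay. Ptpn5 encodes STEP, the striatum-enriched tyrosine phosphatase, which acts on Fyn, on MAP kinases and on NMDA receptor subunits. It stood at 961, 1222 and 972 CPM in Sham, at 483, 653 and 723 CPM in ICH, and at 587, 733 and 654 CPM in EDB. Arpp21 encodes ARPP-21, a small phosphoprotein regulated by cAMP in the same neurons, and stood at 981, 859 and 883 CPM in Sham, at 597, 505 and 708 CPM in ICH, and at 521, 721 and 643 CPM in EDB. For both genes ICH and EDB overlapped, and both lay wholly below Sham. Ptpn5 fell in ICH (-0.76 ± 0.17, adjusted p = 0.0104), as did Arpp21 (-0.59 ± 0.16, adjusted p = 0.0265). For Arpp21 the call went when Sham 1 or Sham 3 (adjusted p = 0.0692 and 0.0563), or ICH 1 or ICH 2 (0.0775 and 0.0884), was left out, and with scaling by library size only (adjusted p = 0.0644).

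Arpp21 is also the host gene of 1 of the 2 loci of miR-128, a microRNA abundant in brain, and R3hdm1, a relative of Arpp21, is the host of the other. The mature sequence, identical from both loci in RefSeq (GRCr8, chr8:120963807-120963827, minus strand, and chr13:42251933-42251953, plus strand), is shown with its seed, bases 2 to 8, in capitals.
rno-miR-128-3p: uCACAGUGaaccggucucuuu
MicroRNAs were not measured in these libraries. R3hdm1 stood at 68.9, 76.1 and 89.6 CPM in Sham, at 67.1, 85.2 and 69.5 CPM in ICH, and at 48.9, 65.6 and 48.0 CPM in EDB, with overlap between Sham and ICH (-0.08 ± 0.16). All EDB libraries lay below all Sham libraries, a difference of -0.53 ± 0.16 that did not pass the test (adjusted p = 0.0730). The difference of Arpp21 between EDB and Sham was also -0.53 (adjusted p = 0.0705).

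Of the 10 genes, 7 fell and 0 rose in ICH against Sham, where 7.30% of all tested genes fell and 11.4% rose. The 7 were Adcy5, Pde1b, Rgs9, Rasd2, Rasgrp2, Ptpn5 and Arpp21. All 10 log2 fold changes were negative, as under each scaling tried, although that of Gnal turned to 0.0095 without Sham 2. Their median was -0.71, against 0.0066 over all tested genes. In 8 of the 10, all ICH libraries lay below all Sham libraries, which held for 15.4% of all tested genes. Without ICH 1, 4 of the 10 fell, namely Pde1b, Rasd2, Rasgrp2 and Ptpn5, and the median was -0.61. Without Sham 2, 7 fell and the median was -0.59. Pde1b, Rasd2, Rasgrp2 and Ptpn5 kept their calls under all 18 alternative settings and left-out libraries, with adjusted p-values up to 0.0460, 0.00649, 0.0128 and 0.0366.

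**Figure D2:**
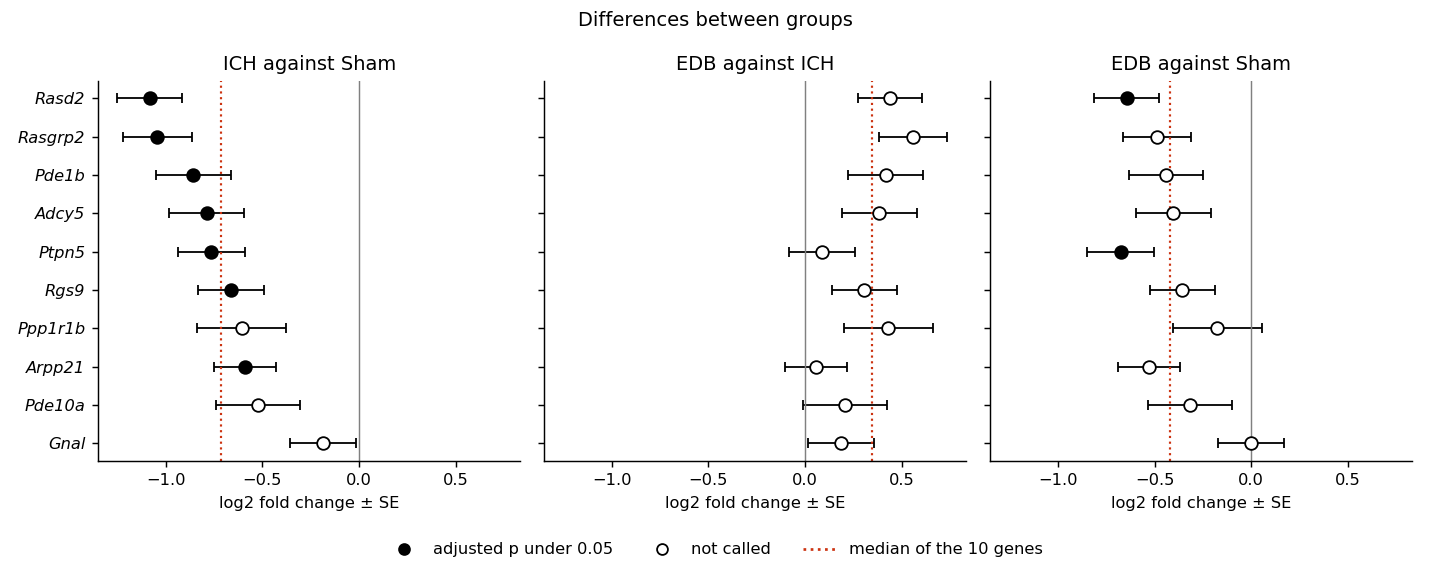
Log2 fold change of each gene (horizontal axis, ± SE, n = 3 against 3) in the 3 comparisons, with filled symbols for an adjusted p under 0.05, open symbols for genes not called, and the median of the 10 genes as a dotted line. In ICH against Sham all 10 points lie below 0 and 7 were called, in EDB against ICH 0 were called, and in EDB against Sham Rasd2 and Ptpn5 were called.

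Transcripts of other cell types moved alongside these falls. The summed level of 12 pan-neuron markers was 3568 to 4599 CPM in Sham and 2807 to 3384 CPM in ICH, with 3 of 12 fallen (Rbfox3, Stmn2 and Tubb3) and a median log2 fold change of -0.36. Of 10 microglia and macrophage markers 9 rose, and their sum went from 626 to 724 CPM in Sham to 2934 to 3444 CPM in ICH. The sum of 7 astrocyte markers went from 3529 to 4238 CPM to 8325 to 8478 CPM, with 2 risen (Gfap and Gja1) and 1 fallen (Aldoc). That difference lay in Gfap, at 403 to 544 CPM in Sham and 4544 to 5165 CPM in ICH, since the other 6 summed to 3024 to 3835 CPM in Sham and 3160.2 to 3934 CPM in ICH. The sum of 6 oligodendrocyte markers was 16678 to 27086 CPM in Sham and 15810.0 to 31559 CPM in ICH, with 0 called by edgeR, DESeq2 or limma-voom and 0 at an unadjusted p under 0.05. The sum of 5 endothelial markers was 248 to 384 CPM in Sham and 187 to 240.4 CPM in ICH, with 1 fallen (Flt1, -0.77 ± 0.18, adjusted p = 0.0134) and a median of -0.42. The sum of 8 cortical excitatory neuron markers was 53.5 to 103 CPM in Sham and 47.3 to 90.5 CPM in ICH, with 0 called and a median of -0.20. The part of these markers in the falls of the 10 genes was not tested.

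Each gene was also set against neuronal transcripts of the same library, as its log2 CPM minus the mean log2 CPM of the 12 pan-neuron genes. On this relative scale 2 of the 10 genes, Rasd2 and Rasgrp2, stayed lower in all ICH libraries than in all Sham libraries, as did 2.75% of all tested genes. Rasd2 stood 3.81, 4.21 and 4.001 log2 units above the pan-neuron mean in Sham and 3.01, 3.63 and 3.42 above it in ICH, a difference of -0.65. Rasgrp2 stood at 0.067, 0.49 and -0.18 in Sham and at -0.69, -0.20 and -0.50 in ICH, a difference of -0.59, with the lowest Sham and the highest ICH library nearly touching. The groups overlapped for the other 8 genes, with differences from -0.42 to 0.25 and Gnal the 1 positive value. The median difference of the 10 on this scale was -0.28. Against the mean of 14 striatal projection neuron identity genes, 7 of the 10 lay lower in ICH without overlap (5.98% of all tested genes), with a median of -0.45. That list holds Ikzf1, which is also an immune cell gene and rose in ICH. Without it, in a reference chosen after the values were seen, 5 lay lower (2.94% of all tested genes) and Gnal lay higher (46.7%), with a median of -0.28.

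**Figure D3:**
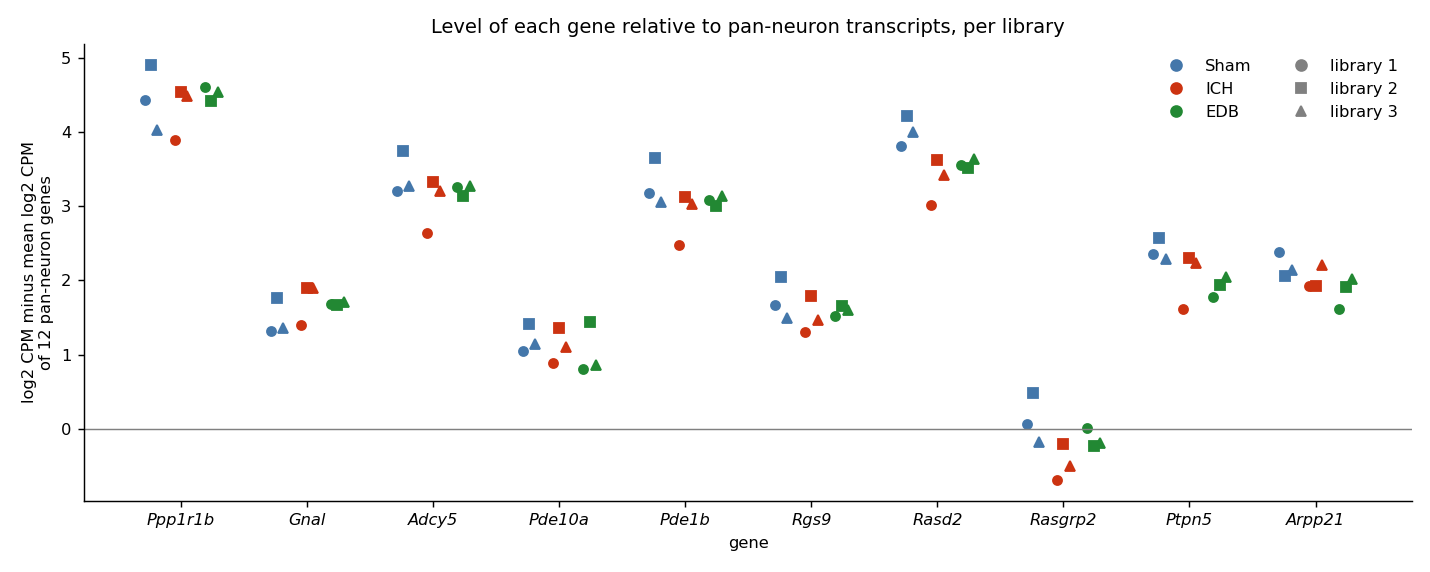
Level of each gene relative to pan-neuron transcripts (vertical axis, log2 CPM minus the mean log2 CPM of 12 pan-neuron genes) in each library, by group. In Rasd2 and Rasgrp2 the 3 ICH points lie below the 3 Sham points, and in Rasd2, Ptpn5 and Arpp21 the 3 EDB points lie below the 3 Sham points.

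The comparison of EDB with ICH asks how the levels in the drug group differ from those in the hemorrhage group. None of the 10 genes was called in it, where 0.0560% of all tested genes rose and 0.631% fell. DESeq2 and limma-voom also called 0. In edgeR an unadjusted p under 0.05 was reached by 2 of the 10 genes and by 16.2% of all tested genes. The 2 were Rasgrp2 (0.56 ± 0.18, adjusted p = 0.160) and Rasd2 (0.44 ± 0.17, adjusted p = 0.225). Rasgrp2 was called higher in the fit without Sham 2 (0.56, adjusted p = 0.0414) and with Sham 2 and EDB 3 both left out (0.67, adjusted p = 0.0392). All 10 log2 fold changes were positive, but 3 of them changed sign in other fits. Pde10a was -0.12 without EDB 2, Ptpn5 was -0.064 without ICH 1, and Arpp21 was -0.052 without EDB 2, -0.043 without ICH 2 and -0.011 with scaling by library size only. Their median was 0.35, against -0.033 over all tested genes, and 0.24 without ICH 1. In 6 of the 10 every EDB library lay above every ICH library, namely Ppp1r1b, Adcy5, Pde1b, Rgs9, Rasd2 and Rasgrp2, which was so for 11.6% of all tested genes. Ptpn5 (0.09 ± 0.17) and Arpp21 (0.06 ± 0.16) had the smallest differences. Relative to the pan-neuron mean, whose 12 genes had a summed level of 3564 to 3976 CPM in EDB, 0 of the 10 lay higher or lower in EDB than in ICH without overlap, where 1.32% of all tested genes lay higher, and the median difference was 0.12. Against the 14 striatal projection neuron identity genes 3 of the 10, Pde1b, Rasd2 and Rasgrp2, lay higher in EDB without overlap (1.82% of all tested genes). Without Ikzf1 in that list 1 did, Rasgrp2 (1.11%).

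Markers of other cell types also differed in level between EDB and ICH. The oligodendrocyte sum was 37209 to 42916 CPM in EDB against 15810.0 to 31559 CPM in ICH, with 0 of 6 called by edgeR, 1 at an unadjusted p under 0.05 and 1 higher with DESeq2. The astrocyte sum was 5683 to 6594 CPM against 8325 to 8478 CPM, with 0 of 7 called by edgeR, 5 at an unadjusted p under 0.05 and 2 lower with DESeq2. The microglia and macrophage sum was 1487 to 2629 CPM against 2934 to 3444 CPM, with 0 of 10 called by edgeR, 7 at an unadjusted p under 0.05 and 3 lower with DESeq2. The sum of 8 cortical excitatory neuron markers was 41.1 to 69.1 CPM against 47.3 to 90.5 CPM, with 0 of 8 called by edgeR, DESeq2 or limma-voom and a median log2 fold change of -0.57. The part of these markers in the differences of the 10 genes was not tested.

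**Figure D4:**
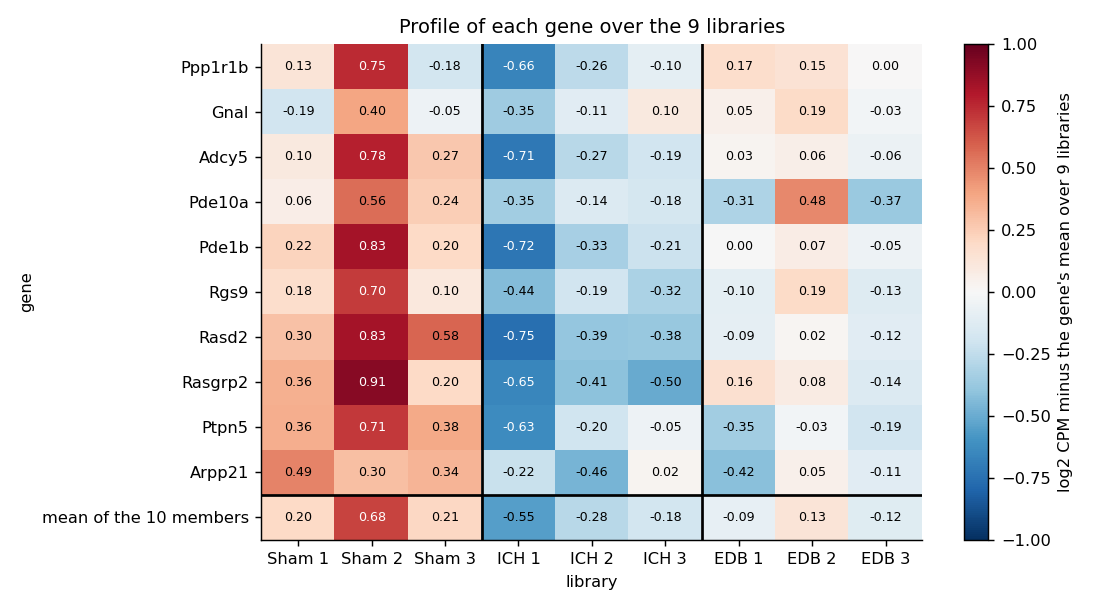
Profile of each gene over the 9 libraries, as its log2 CPM minus its own mean over all libraries (colour and printed values). Sham 2 holds the highest value of 9 genes, ICH 1 the lowest of 8, and EDB lies near the mean for most genes but below it for Ptpn5 in all 3 libraries.

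Against Sham, EDB showed lower levels of 2 genes, Rasd2 (-0.64 ± 0.17, adjusted p = 0.0401) and Ptpn5 (-0.68 ± 0.17, adjusted p = 0.0376), where 2.71% of all tested genes fell and 4.95% rose. Both calls lay close to the threshold. With single libraries left out, 0 to 2 genes were called, and 0 without Sham 2, Sham 3, ICH 2, EDB 1, EDB 2 or EDB 3, with adjusted p-values up to 0.135 for Rasd2 and 0.146 for Ptpn5. In 6 of the 10, every EDB library lay below every Sham library, namely Adcy5, Pde1b, Rasd2, Rasgrp2, Ptpn5 and Arpp21, against 10.9% of all tested genes. Arpp21 came next to the threshold (-0.53 ± 0.16, adjusted p = 0.0705) and passed it with DESeq2 (adjusted p = 0.0172). The median of the 10 was -0.42, and -0.19 without Sham 2, against -0.0073 over all tested genes. Ppp1r1b (-0.18 ± 0.23) turned to 0.13 without Sham 2, and Gnal differed by 0.00027 ± 0.17 and was negative with RLE scaling (-0.012). On the scale relative to pan-neuron transcripts, Rasd2 (-0.44), Ptpn5 (-0.48) and Arpp21 (-0.35) lay lower in every EDB library than in every Sham library (4.60% of all tested genes), and the other 7 genes overlapped. Against the 14 striatal projection neuron identity genes 6 of the 10 lay lower in EDB without overlap (5.79% of all tested genes), with a median of -0.32. Without Ikzf1 in that list 3 lay lower, Pde1b, Rasd2 and Ptpn5 (3.77%), and Gnal lay higher (20.4%), with a median of -0.23.

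Markers of other cell types differed between EDB and Sham too. The oligodendrocyte sum was 37209 to 42916 CPM in EDB against 16678 to 27086 CPM in Sham, with 0 of 6 called by edgeR or limma-voom, 6 at an unadjusted p under 0.05, 4 higher with DESeq2 and a median log2 fold change of 0.82. Of the microglia and macrophage markers 8 of 10 rose, with sums of 1487 to 2629 CPM against 626 to 724 CPM. Among the 7 astrocyte markers, with a median log2 fold change of -0.22, Gfap rose (2.74 ± 0.17, adjusted p = 4.76e-05) and Slc1a2 fell (-0.74 ± 0.19, adjusted p = 0.0398). The 6 other than Gfap summed to 2825 to 2891 CPM in EDB, below the 3024 to 3835 CPM of Sham. The endothelial sum was 198 to 214 CPM against 248 to 384 CPM, with 1 of 5 markers fallen (Flt1, -0.73 ± 0.18, adjusted p = 0.0362). The sum of 8 cortical excitatory neuron markers was 41.1 to 69.1 CPM against 53.5 to 103 CPM, with 0 of 8 called by edgeR, DESeq2 or limma-voom and a median of -0.81. The part of these markers in the falls of Rasd2 and Ptpn5 was not tested. Each group enters 2 of the 3 comparisons, so their values are not independent of each other.

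Ratios of 2 genes within a library do not depend on library scaling. Of the 45 pairs among the 10 genes, 20 had ratios that did not overlap between ICH and Sham, 11 between EDB and ICH, and 16 between EDB and Sham. Among all pairs of tested genes this held for 37.3%, 24.3% and 26.7%, so these counts are not far from the background. The 3 pairs below are examples taken from those that separated and add nothing to these counts. Gnal to Rasd2 had the largest difference between ICH and Sham of the 45. The log2 ratio of Gnal to Rasd2 was -2.49, -2.45 and -2.64 in Sham, -1.61, -1.73 and -1.53 in ICH, and -1.87, -1.84 and -1.92 in EDB. The 3 groups were thus separate, ICH lay 0.90 above Sham, and EDB lay between them, 0.65 above Sham. The ratio of Rasd2 to Ptpn5 was 1.45, 1.64 and 1.72 in Sham, 1.40, 1.32 and 1.19 in ICH, and 1.78, 1.57 and 1.60 in EDB. Here ICH lay below both other groups, which overlapped with each other. The ratio of Ppp1r1b to Rasd2 was 0.61, 0.70 and 0.019 in Sham, 0.87, 0.91 and 1.06 in ICH, and 1.04, 0.90 and 0.90 in EDB, so that ICH and EDB overlapped and both lay above Sham.

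Likeness of profiles was measured as the root mean square difference between log2 CPM values centred on each gene's mean, over the 9 libraries. The closest pair was Adcy5 and Pde1b (0.0563), and the farthest were Gnal and Rasd2 (0.387) and Ppp1r1b and Arpp21 (0.368). Against the mean profile of the 10, Rgs9 was the closest of them (0.0785), followed by Adcy5 (0.0899) and Pde1b (0.0907), and Arpp21 was the farthest (0.246). The 8 closest named genes outside the 10 included Smpd3 (0.0745), Add2, Mmp24, Mypop, Rgs8, Dmtn and Spata2L (0.0814). Smpd3 encodes neutral sphingomyelinase 2, and Rgs8 encodes a relative of Rgs9.

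The rest of the pathway was described through 11 lists with 115 genes, of which 106 were tested. In ICH against Sham 22 of the 106 fell (20.8%) and 4 rose (3.77%), with a median log2 fold change of -0.26. Over all tested genes 7.30% fell and 11.4% rose there, the background for each list below. Without ICH 1, 11 fell. In EDB against ICH edgeR and limma-voom called 0, with a median of 0.082, and 23 of the 106 had an unadjusted p under 0.05 in edgeR, against 16.2% of all tested genes. DESeq2 called 1 lower and 2 higher there, and the fit without Sham 2 called 1 lower and 3 higher. In EDB against Sham 8 fell (7.55%) and 1 rose (0.943%), against 2.71% and 4.95% of all tested genes. The median there was -0.18, and 2 to 8 fell with single libraries left out.

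**Figure D5:**
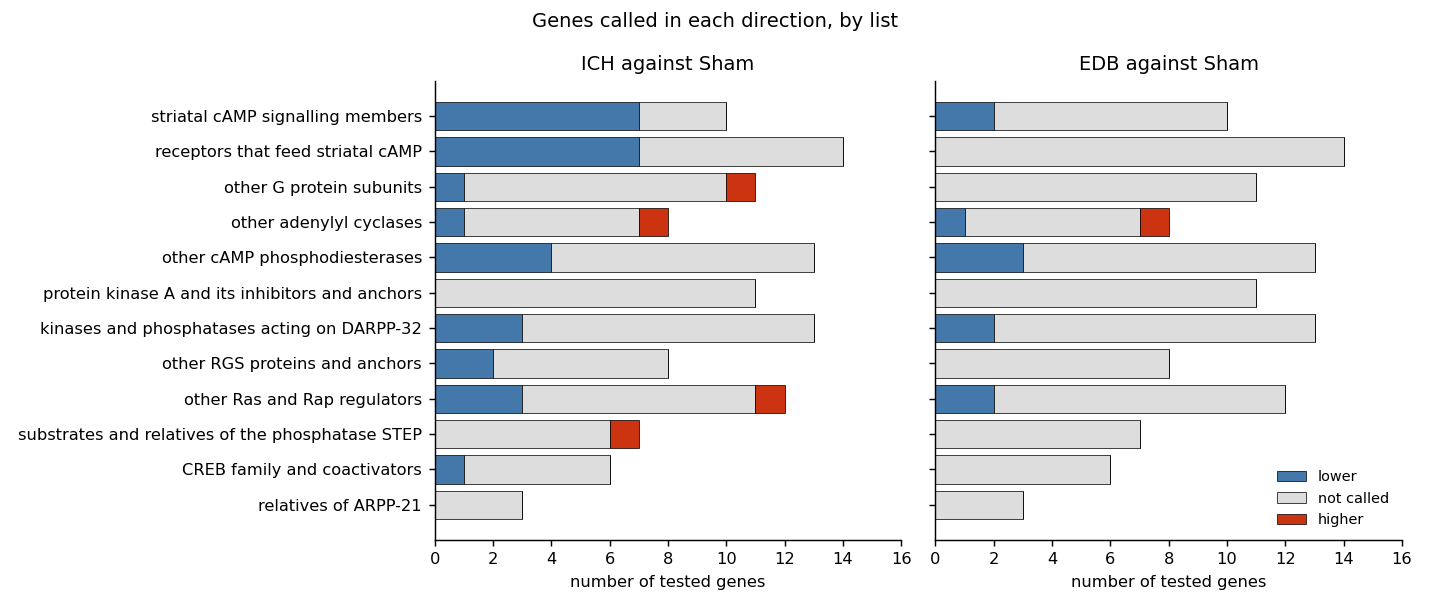
Number of tested genes called lower, called higher or not called (bars, from 0) among the 10 genes (top bar) and in each of the 11 pathway lists, for ICH against Sham and EDB against Sham. The receptors had 7 of 14 genes lower in ICH and 0 of 14 in EDB, against 7.30% and 2.71% of all tested genes.

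Among 14 tested receptors that feed striatal cAMP, 7 fell in ICH and 0 rose, against 7.30% and 11.4% of all tested genes. The median was -0.64, and those that fell included Adora2a, Chrm4, Drd2, Gpr52, Htr6 and Oprd1. The adenosine receptor gene Adora2a stood at 566, 925 and 617 CPM in Sham, at 352, 448 and 403 CPM in ICH, and at 612, 588 and 550.3 CPM in EDB, and fell in ICH (-0.81 ± 0.18, adjusted p = 0.0101). Gpr52, an orphan receptor coupled to the stimulatory G protein, fell by 0.94 on the log2 scale (SE 0.20, adjusted p = 0.00833). In EDB against Sham edgeR called 0 of the 14, DESeq2 called 1 lower and limma-voom 0, and 2 had an unadjusted p under 0.05, against 22.9% of all tested genes. In EDB against ICH edgeR called 0 of the 14, DESeq2 2 higher and limma-voom 0. An unadjusted p under 0.05 in edgeR was reached by 7, against 16.2% of all tested genes. Of 11 other G protein genes, Ric8b, a chaperone of Golf, fell (-0.60 ± 0.15, adjusted p = 0.0159, and 0.0559 without ICH 1). Gnai2, an inhibitory subunit that is abundant in immune cells, rose (0.67 ± 0.11, adjusted p = 0.00173).

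The other cyclases split between 2 genes. Adcy1, the calmodulin-stimulated neuronal cyclase, stood at 591, 623 and 752 CPM in Sham, at 243, 216 and 235 CPM in ICH, and at 241, 315 and 241 CPM in EDB. Both ICH and EDB lay far below Sham, with log2 fold changes of -1.503 ± 0.15 in ICH (adjusted p = 7.03e-05) and -1.30 ± 0.15 in EDB (adjusted p = 0.000786). The fall of Adcy1 in ICH exceeded that of any of the 10 genes in size. Adcy7, a cyclase of blood and immune cells, stood at 4.87, 5.27 and 4.46 CPM in Sham, at 23.1, 22.5 and 18.8 CPM in ICH, and at 11.3, 17.6 and 7.94 CPM in EDB. It rose in ICH (2.14 ± 0.27, adjusted p = 0.000322) and in EDB (1.34 ± 0.27, adjusted p = 0.0128), the latter call being lost without Sham 1 or Sham 3 (adjusted p = 0.0521 and 0.0545). The sum of the microglia and macrophage markers, at 626 to 724 CPM in Sham, 2934 to 3444 CPM in ICH and 1487 to 2629 CPM in EDB, was also highest in ICH, and its part in the rise of Adcy7 was not tested.

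Of 13 other cAMP phosphodiesterases, Pde2a, Pde3a, Pde4a and Pde4c fell in ICH and none rose. Pde4a fell by 0.58 on the log2 scale (SE 0.13, adjusted p = 0.0105), and Pde4c by 2.39 (SE 0.50, adjusted p = 0.00714). Levels of Pde4c were low, at 3.25, 3.08 and 8.07 CPM in Sham and 0.933, 0.755 and 1.03 CPM in ICH. Its mean in Sham, 4.80 CPM, thus leaned on Sham 3, against 0.905 CPM in ICH. The call was kept under all 18 alternatives, with changes from -2.64 to -1.79. Pde2a (-0.55 ± 0.16, adjusted p = 0.0319) was no longer called when Sham 2 or Sham 3, ICH 1 or ICH 2, or EDB 1 was left out. In EDB against Sham, Pde3a, Pde4d and Pde8b fell, at adjusted p-values of 0.0366, 0.0307 and 0.0394, each of which was lost when any EDB library, or Sham 1 or Sham 3, was left out, and that of Pde3a also without ICH 2 or ICH 3. Protein kinase A with its inhibitors and anchors had 0 of 11 genes called by edgeR or limma-voom in each comparison, with a median of 0.0049 in ICH against Sham. There 2 of the 11 had an unadjusted p under 0.05, against 31.5% of all tested genes, and DESeq2 called 1 lower and 1 higher.

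Around DARPP-32, 3 of 13 kinase and phosphatase genes fell in ICH. Ppp1r9b, which encodes spinophilin, the anchor of protein phosphatase 1 in dendritic spines, stood at 2042, 2224 and 2483 CPM in Sham, at 1089, 1051 and 1336 CPM in ICH, and at 1149.6, 1122 and 1265 CPM in EDB. It fell in ICH (-0.96 ± 0.14, adjusted p = 0.000889) and in EDB (-0.93 ± 0.14, adjusted p = 0.00287). Ppp1r1a, the inhibitor 1 of the same phosphatase, fell in ICH (-0.81 ± 0.17, adjusted p = 0.00618). It also fell in EDB against Sham (-0.64 ± 0.16, adjusted p = 0.0386), a call kept under 9 of 18 alternatives. Ppp1ca, a catalytic subunit, lay near the threshold in ICH against Sham (-0.54 ± 0.17, adjusted p = 0.0462). It was no longer called when any 1 library other than Sham 3 was left out (-0.33 without Sham 2).

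Regulators of small and large G proteins showed the same direction in part. Of 8 other RGS genes and anchors, Rgs4 (-0.83 ± 0.24, adjusted p = 0.0327) and Rgs8 (-0.66 ± 0.18, adjusted p = 0.0237) fell in ICH. Without Sham 2 these values were -0.51 (adjusted p = 0.0929) and -0.42 (adjusted p = 0.0496), and both calls were lost without ICH 1 (adjusted p = 0.0733 and 0.0931) or ICH 3 (0.107 and 0.0530). Of 12 other Ras and Rap regulators 3 fell, among them Rap1gap (-0.85 ± 0.19, adjusted p = 0.0103) and Rap1gap2. Rap1gap inactivates Rap1, the GTPase that CalDAG-GEFI activates. It also fell in EDB against Sham (-0.74 ± 0.19, adjusted p = 0.0414), a call kept under 9 of 18 alternatives. Rap1b, which encodes a Rap1 protein, rose in ICH (1.03 ± 0.25, adjusted p = 0.0158, and 0.0645 without ICH 1). Of 7 substrates and relatives of STEP, 1 was called, the kinase Fyn, which rose (0.39 ± 0.11, adjusted p = 0.0379) but was no longer called when any 1 library other than Sham 2 or EDB 2 was left out. Of 6 CREB family genes and coactivators Crtc1 fell (-0.77 ± 0.18, adjusted p = 0.0120, and 0.0527 without ICH 1), and of 3 relatives of ARPP-21 edgeR, DESeq2 and limma-voom called 0, with 1 at an unadjusted p under 0.05.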

How the data were processed

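RNA-seq of rat striatum gave 9 libraries. The authors deposited raw read counts per gene, 1 file per library. Per the submitters' processing notes, cutadapt, HISAT2, HTSeq and limma were used on the genome build Rnor_6.0. Versions, annotation and strand setting were not given in the sources used here, so reads of overlapping antisense genes cannot be told apart.

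Counts were analysed with edgeR 4.0.16 in R 4.3.3 (filterByExpr by group, TMM scaling, robust glmQLFit, 1 mean per group over all 9 libraries, two-sided quasi-likelihood F test), with Benjamini-Hochberg adjustment over 14274 genes. The test gives no SE, so the SE was derived as the size of the log2 fold change over the square root of the F value. CPM use TMM-scaled library sizes, and log2 CPM a prior count of 2. DESeq2 1.42.0 and limma-voom (limma 3.58.1), other scalings and filters, a replicate block and left-out libraries were alternatives. The procedure was tested on simulated data. Replicate pairs differed far beyond sampling noise (chi-square per degree of freedom 25.0 to 72.5).

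The 10 genes, the lists and the settings were chosen with earlier results of these data known. The text names all 10 genes, up to 3 genes with the smallest p per pathway list and comparison, and the 8 genes nearest in profile. A few genes of the lists are not reported here by name. Other genes called in a list were named after their values were seen. Gene lengths were not used, so levels are compared within a gene. Sequences are from RefSeq (GRCr8) and carry no coordinates of the deposited files.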

Additional observations from a re-analysis of the deposited data

How the results depend on the processing

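Leaving out ICH 1 had the largest effect on ICH against Sham: 1769 genes in place of 2670 were called, 4 in place of 7 of the 10 genes fell, and 11 in place of 22 pathway genes fell. With single libraries left out, these counts ran from 1769 to 2624, 4 to 8 and 11 to 21. Scaling by library size only gave 7 pathway genes higher in place of 4, and moved the median of all genes to 0.102. In EDB against ICH the 98 calls over all genes became 679 with DESeq2, 187 with limma-voom, 58 with the replicate block, 161 with Sham 2 and EDB 3 both left out, and 8 to 321 with single libraries left out. Of the 10 genes 0 to 1 rose there (1 without Sham 2, and 1 with Sham 2 and EDB 3 left out). Of the pathway genes 0 to 1 fell and 0 to 3 rose with single libraries left out, DESeq2 gave 1 and 2, and leaving out Sham 2 and EDB 3 gave 1 rise. In EDB against Sham the 1094 calls became 1765 with DESeq2 and 508 to 1661 with single libraries left out. Of the 10 genes 0 to 2 fell with single libraries left out, 3 with DESeq2, 1 with only the 6 libraries compared and 0 with Sham 2 and EDB 3 left out. Pathway genes that fell numbered 3 in place of 8 with the replicate block and with Sham 2 and EDB 3 left out, and 2 to 8 with single libraries left out. Pathway rises numbered 2 with DESeq2, 3 without both libraries, and 0 to 3 with single libraries left out.

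The sign turned for uncalled differences only. With single libraries left out, ICH against Sham ran from -0.34 to 0.0095 (without Sham 2) for Gnal. EDB against ICH ran from -0.12 (without EDB 2) to 0.36 for Pde10a, from -0.064 (without ICH 1) to 0.21 for Ptpn5, and from -0.052 (without EDB 2) to 0.19 for Arpp21, which was -0.043 without ICH 2 and -0.011 with library size scaling. EDB against Sham ran from -0.36 to 0.13 (without Sham 2) for Ppp1r1b and from -0.13 (without Sham 1) to 0.19 for Gnal, which was also negative without Sham 3, ICH 2 or EDB 2, and with RLE scaling (-0.012), a filter of 1 CPM in 3 libraries (-0.00090) and DESeq2 (-0.011). With Sham 2 and EDB 3 left out, Ppp1r1b was 0.20 and Pde10a 0.0012. The causes were not tested. Of the values of single genes under the alternatives, 923 kept direction and call, 117 lost and 6 gained a call.

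Whether the replicate numbers mark a batch or a pairing is not stated. Correlations of log2 CPM minus its group mean ran from -0.31 to 0.25 for same-numbered libraries of different groups. For differently numbered ones they ran from -0.23 to 0.33. With so few libraries per group these values cannot tell whether the numbers carry a meaning. With the replicate block 6 of the 10 genes fell in ICH against Sham, 0 were called in EDB against ICH and 2 fell in EDB against Sham. Arpp21 was the call lost in ICH (adjusted p = 0.0514).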
